A study of Homo sapiens with 7 samples.

Results

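The microRNAs measured here belong to a cluster on chromosome X that lies within the gene of the chloride transporter CLCN5. All assays named miR-188, miR-362, miR-500, miR-501, miR-502, miR-532 or miR-660, with any arm suffix, were taken from a TaqMan quantitative PCR card, which gave 11 of its 377 human microRNA assays. The rule used names alone and no measured value, though it was set with earlier results of these data known. The card was run once for each of 7 cell lines that were derived from mouse lungs. They descend from MDA-MB-435-GFP, an established human cancer line labelled with green fluorescent protein. 3 lines (4T, 3T and 8T) came from the oligometastatic derivative L1-R2, which forms few lung metastases, and 4 lines (2T, 3T, 7T and 8T) from the polymetastatic derivative L1Mic-R2, which forms many. According to the study's methods each line came from a distinct animal by injection into the tail vein, whereas the labels name the mammary fat pad. By the same methods, L1-R2 lines came from mice given the line L1-R1, and L1Mic-R2 lines from mice given L1Mic-R1. Both of these ancestors were taken from the lung of 1 animal. Each group thus goes back to 1 ancestor line, so that group and ancestor cannot be told apart. All lines descend from 1 parental line, so that they stand for 1 tumor and not for different patients, and no line carried a further allele or treatment. The comparison asked whether the cluster differs between lines with limited and with widespread metastatic dissemination.

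A microRNA is cut from the hairpin of a longer transcript, and either arm of the hairpin, named 5p or 3p, can be loaded into the silencing complex. The seed near its 5′ end pairs with target messages, so that microRNAs with a shared seed can reach the same targets. MicroRNA genes that lie close together in an intron can be made from 1 transcript with the host gene and are then expected to rise and fall together, unless the processing or the stability of single hairpins differs. miR-532, miR-660 and the related miR-500 to miR-502 group have been measured in many tumor types, melanoma among them.

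The cluster spans chrX:50003148-50014683 (GRCh38.p14, RefSeq), 11536 bases, within the span of CLCN5 at chrX:49922596-50099230. RefSeq lists 15 mature sequences for its 8 hairpin genes, all on the plus strand, and 9 of the 11 assays matched one of them by name and arm. The assays named miR-500 and miR-660 carry no arm. The mature sequences are shown from 5′ to 3′ with the seed (bases 2 to 8) in capitals, because the likeness between members decides how separately their assays can be read. For miR-500 both arms of miR-500a are given. For miR-660 none is given, because the 15 hold only its 3p arm and the assay names no arm.
miR-532-5p: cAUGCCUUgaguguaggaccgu
miR-532-3p: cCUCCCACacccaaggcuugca
miR-188-3p: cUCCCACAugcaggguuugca
miR-500a-5p: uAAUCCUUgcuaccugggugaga
miR-500a-3p: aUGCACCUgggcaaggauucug
miR-362-5p: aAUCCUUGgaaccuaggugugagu
miR-362-3p: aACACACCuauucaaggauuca
miR-501-5p: aAUCCUUUgucccugggugaga
miR-501-3p: aAUGCACCcgggcaaggauucu
miR-502-5p: aUCCUUGCuaucugggugcua
miR-502-3p: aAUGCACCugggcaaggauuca

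The members fell into groups by sequence. miR-501-3p and miR-502-3p shared the seed AUGCACC and 20 of 22 bases, with the substitutions U9C and A22U from miR-502-3p to miR-501-3p, counted from 1 at the 5′ end. miR-500a-3p, which the miR-500 assay may or may not read, was nearer still, matching miR-502-3p at 20 of 21 aligned bases with a shared run of 20, and miR-501-3p also at 20 of 21. On the 5p side, miR-500a-5p and miR-501-5p matched at 19 of 22 aligned bases, and miR-500a-5p and miR-502-5p at 18 of 21. The run AUCCUU, searched on the mature strand, occurred in 5 of the 15 mature sequences of the locus, among them miR-362-5p, miR-501-5p and miR-502-5p, and in 0.717% of all 2370 human mature sequences of the same table. miR-532-3p and miR-188-3p shared the run CUCCCACA, shifted by 1 base, and 17 of 21 aligned bases. Whether an assay also reads its nearest relative was not tested.

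Each value is a threshold cycle (Ct), the PCR cycle at which the signal crossed a set threshold. Ct is a log2 scale on which 1 cycle less stands for about 2 times more RNA, and 40 stands for wells recorded as Undetermined. A microRNA was called detected below a Ct of 38. By this limit 9 of the 11 members were detected in all 7 lines, as were 135 of the 377 human microRNAs, and 160 to 184 microRNAs were detected per line. The control U6 lay between 15.97 and 16.77 in the 7 lines, RNU44 between 23.67 and 25.97, and RNU48 between 18.81 and 20.97. The L1-R2 cards carried the numbers 1 to 3 and the L1Mic-R2 cards 4 to 7, so that card order and group cannot be told apart. As a check of the labelled line, 7 of 9 melanocytic microRNAs of the list used were detected in all 7 lines. The exceptions were miR-211, with 5 lines, and miR-513-5p, with 2. Raw Ct of miR-211 was 27.49 to 30.56 in L1-R2 and 29.00 to 40 in L1Mic-R2. Of 7 epithelial microRNAs 2 were below the limit in all 7 lines, namely miR-200b and miR-200c. Raw Ct of miR-200c was 30.10 to 34.02 in L1-R2 and 32.40 to 35.46 in L1Mic-R2. No line had miR-205 or miR-141 below the limit, and the remaining epithelial ones passed it in 2 to 4 lines. Of 4 blood microRNAs 0 were detected in all 7 lines. miR-223 was detected in 4 lines and miR-142-3p in 2, and miR-142-5p and the defining miR-451 in none. The endothelial miR-126 was detected in all 7, with a raw Ct of 32.46 to 35.06 in L1-R2 and 28.71 to 32.41 in L1Mic-R2, without overlap. Summed over each list on the linear scale and written as 40 minus raw Ct, so that more is higher, the melanocytic microRNAs reached 14.97 to 15.64 in L1-R2 and 13.92 to 14.75 in L1Mic-R2, again without overlap, whereas the epithelial (7.39 to 10.3 and 5.49 to 8.31) and blood lists (2.38 to 4.64 and 2 to 4.81) overlapped. On raw Ct 20.4% of the 181 microRNAs detected in at least 3 lines also had groups that did not overlap. Their median log2 fold change on raw Ct, L1Mic-R2 over L1-R2, was −0.25, so that L1Mic-R2 cards read later in general. The part of the microRNAs of these lists in the results below was not tested.

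**Figure D1:**
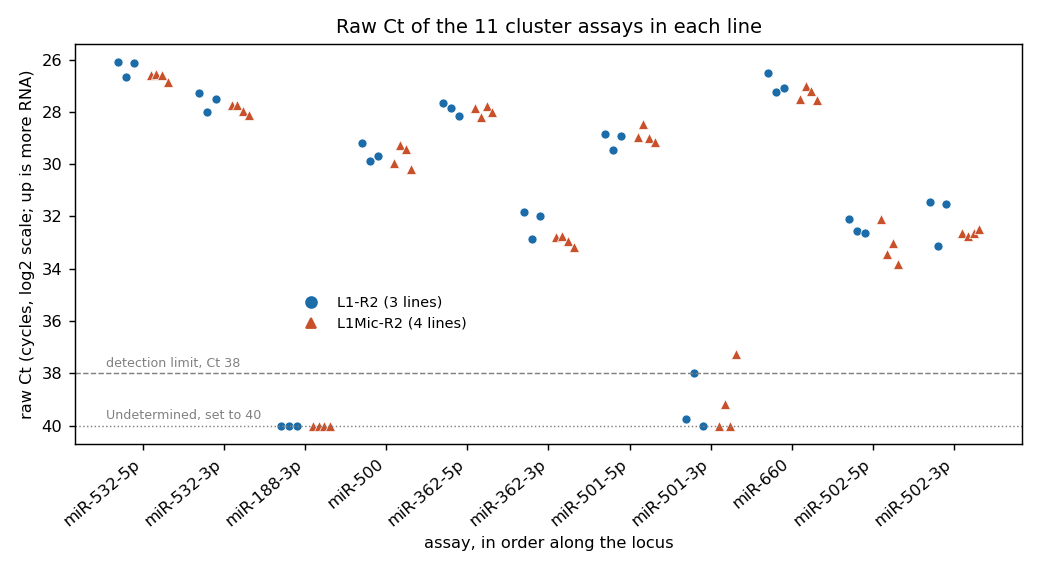
Raw Ct (vertical axis, cycles, inverted so that up is more RNA) of the 11 cluster assays in order along the locus, with 1 point per line (circles L1-R2, n = 3; triangles L1Mic-R2, n = 4). 9 assays sit between 26.10 and 33.82 in every line with overlapping groups, miR-188-3p is Undetermined in all 7 lines, and miR-501-3p lies between 37.25 and 40.

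The 9 detected members were of moderate level and kept nearly the same order of Ct in every line. The earliest was miR-532-5p, with a mean raw Ct of 26.50 ± 0.274 (SD, n = 7 lines), the 34th of the 181 microRNAs detected in at least 3 lines. miR-660 came 0.661 ± 0.203 cycles later (mean ± SD of the difference within a card, n = 7), and miR-532-3p 0.604 ± 0.205 cycles after miR-660, both steps in the same direction in 7 of 7 lines. The next, miR-362-5p, was 0.167 ± 0.332 cycles later than miR-532-3p and came after it in 4 of 7 lines, so that the pair was not separated beyond its spread. miR-501-5p followed by 1.04 ± 0.419 cycles and miR-500 by another 0.685 ± 0.304, each in 7 of 7 lines. A gap of 2.72 ± 0.605 cycles, again in 7 of 7 lines and with no overlap of the ranges, set these 6 assays apart from miR-502-3p, miR-362-3p and miR-502-5p. Within the late group the steps were 0.244 ± 0.312 and 0.189 ± 0.533 cycles, in the stated order in 6 and 5 of 7 lines, so that these neighbours did not differ beyond their spread. Ct sets levels of different assays side by side only as far as the assays amplify with equal efficiency, which was not measured here.

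The remaining 2 members were at the limit of the card. miR-188-3p was Undetermined in all 7 lines. miR-501-3p read 39.72 in line 4T of L1-R2, 37.97 in 3T and 40 in 8T, and in L1Mic-R2 it read 40 in line 2T, 39.17 in 3T, 40 in 7T and 37.25 in 8T. It was below 38 in 1 line of each group and was not tested. Its near-identical relative miR-502-3p was 4.75 to 8.46 cycles earlier on the same cards, with Undetermined wells taken as 40.

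No member of the cluster passed the test between the oligometastatic and polymetastatic lines, and the estimates lay close to 0 for most of them. After quantile normalization of the cards, limma called 0 of the 9 members at an adjusted p under 0.05, where it called 4.97% of the 181 microRNAs tested. That background fell whichever line was left out. It was 9 microRNAs with all lines, 0 without line 3T or 8T of L1-R2 or line 2T of L1Mic-R2, and 1 to 4 without any other line. Leaving out a line also lowers the power of the test, so that these counts cannot show whether the calls depend on particular lines. At an unadjusted p under 0.05 limma also called 0 of 9, against 19.3% of all. The test of single microRNAs named in the methods called 0 after adjustment and 2 before it, miR-501-5p and miR-660. Its share over all 181 before adjustment was not counted, so that these 2 have no background beside them. The log2 fold change, L1Mic-R2 over L1-R2 with positive values for more RNA in L1Mic-R2, was positive in 4 members and negative in 5. Its median was −0.02 over the members and 0.06 over all 181, and the median of its size was 0.149 and 0.486. The sizes are not matched for level, since the 9 members were detected in all 7 lines and the 181 in at least 3. Averaged over the 9 members, the normalized Ct was 29.53 ± 0.223 (SD, n = 3) for L1-R2 lines and 29.53 ± 0.0404 (SD, n = 4) for those of L1Mic-R2. With 3 lines against 4, the 95% intervals of single members reached from −1.17 to 1.29 at their widest, so that these lines leave changes of that size possible in the late assays. On raw Ct 8 of the 9 log2 fold changes were negative, with a median of −0.33 against −0.25 over all microRNAs, and with RNU44 and RNU48 as reference all 9 were positive, with a median of 0.47 against 0.56.

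**Figure D2:**
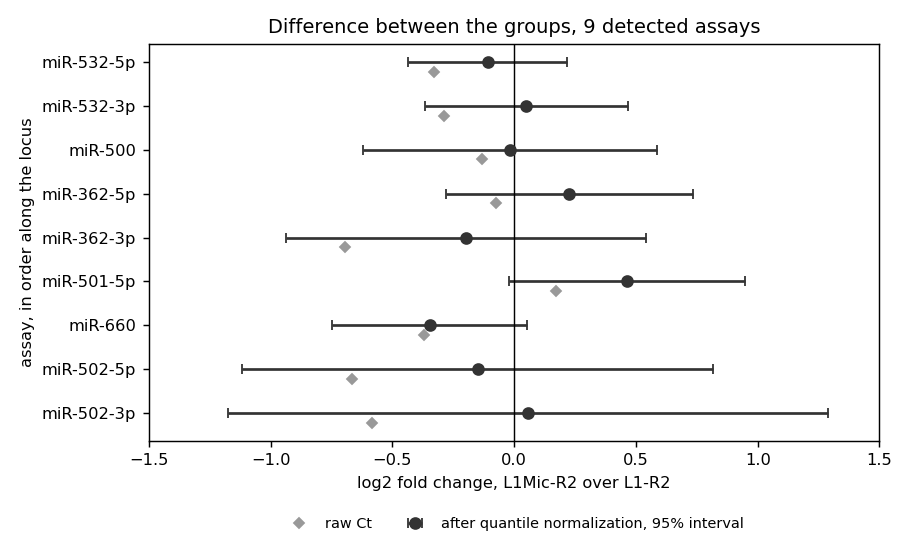
Log2 fold change of L1Mic-R2 (n = 4 lines) over L1-R2 (n = 3 lines) for the 9 detected members in order along the locus; black points are the limma estimates after quantile normalization with their 95% intervals, and grey diamonds the differences in raw Ct. Every interval includes 0, with miR-501-5p (0.46) the highest estimate and miR-660 (−0.35) the lowest.

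The hairpin of miR-532 opens the cluster. Raw Ct of miR-532-5p stood at 26.10 in line 4T of L1-R2, 26.67 in 3T and 26.15 in 8T, and at 26.58 in line 2T of L1Mic-R2, 26.54 in 3T, 26.58 in 7T and 26.85 in 8T. Its other arm, miR-532-3p, read 27.28, 27.99 and 27.51 in L1-R2 and 27.73, 27.73, 27.98 and 28.11 in L1Mic-R2, in the same order of lines, which is kept throughout. Line 4T of L1-R2 was the earliest for both arms, and the groups overlapped. After normalization the log2 fold change was −0.11 (SE 0.134, 95% interval −0.43 to 0.22, limma adjusted p = 0.718) for miR-532-5p and 0.05 (SE 0.172, −0.37 to 0.47, adjusted p = 0.882) for miR-532-3p. These were the narrowest intervals among the members together with that of miR-660. The sign for miR-532-3p turned on raw Ct, to −0.29, and that for miR-532-5p with RNU44 and RNU48 as reference, to 0.47.

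miR-660, from the far side of the cluster, was one of 2 members whose groups did not overlap after normalization. On raw Ct it read 26.53, 27.23 and 27.08 in L1-R2 and 27.50, 27.00, 27.22 and 27.55 in L1Mic-R2, and these values overlapped. Its normalized Ct was 26.76, 26.95 and 27.08 in L1-R2 and 27.51, 27.20, 27.20 and 27.20 in L1Mic-R2. All 4 polymetastatic lines thus lay later than all 3 oligometastatic lines, and the equal values arise because quantile normalization gives the same rank the same value on every card. The log2 fold change was −0.35 (SE 0.165, 95% interval −0.75 to 0.05), with a limma adjusted p of 0.285. Permuting the lines (exact, two-sided, difference of means) gave p = 0.0286, the smallest that 3 lines against 4 allow, before any adjustment. With RNU44 and RNU48 as reference the value was 0.43.

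miR-501-5p was the other such member, in the opposite direction. It read 28.84, 29.47 and 28.91 in L1-R2 and 28.94, 28.48, 29.01 and 29.15 in L1Mic-R2 on raw Ct, where the groups overlapped. The normalized values were 29.13, 29.21 and 29.21 in L1-R2 and 28.78, 28.38, 29.09 and 28.63 in L1Mic-R2, so that every polymetastatic line was earlier, line 7T by a few hundredths of a cycle. The log2 fold change was 0.46 (SE 0.200, 95% interval −0.02 to 0.95, limma adjusted p = 0.254, exact permutation p = 0.0571). Of the 9 members 2 thus had groups that did not overlap, where 19.3% of the 181 microRNAs tested did, and on raw Ct 0 of 9 against 20.4%. The share after normalization is near that of the card as a whole.

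miR-362 and miR-500 lie between these. miR-362-5p read 27.66, 27.84 and 28.16 in L1-R2 and 27.87, 28.18, 27.77 and 28.01 in L1Mic-R2, the narrowest raw range of the cluster. miR-362-3p read 31.84, 32.85 and 31.97 in L1-R2 and 32.80, 32.73, 32.95 and 33.18 in L1Mic-R2. For miR-362-3p line 3T of L1-R2 stood with the polymetastatic lines and the other two oligometastatic lines were earlier. Normalized log2 fold changes were 0.23 (SE 0.208, limma adjusted p = 0.598) for miR-362-5p and −0.20 (SE 0.304, adjusted p = 0.737) for miR-362-3p, and without line 3T of L1-R2 the latter was −0.57. miR-500 read 29.17, 29.87 and 29.70 in L1-R2 and 29.97, 29.28, 29.41 and 30.19 in L1Mic-R2. Its groups overlapped, with a log2 fold change of −0.02 (SE 0.248, 95% interval −0.62 to 0.58, adjusted p = 0.962).

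miR-502, the last hairpin, gave the 2 assays with the largest spread among the 9 detected members. miR-502-5p read 32.10, 32.56 and 32.62 in L1-R2 and 32.11, 33.44, 33.00 and 33.82 in L1Mic-R2. miR-502-3p read 31.46, 33.12 and 31.54 in L1-R2 and 32.64, 32.73, 32.63 and 32.50 in L1Mic-R2. Line 2T of L1Mic-R2 was within the oligometastatic range for the 5p arm, and line 3T of L1-R2 was the latest of all 7 for the 3p arm. The log2 fold changes were −0.15 (SE 0.398, 95% interval −1.12 to 0.82, limma adjusted p = 0.842) and 0.06 (SE 0.506, −1.17 to 1.29, adjusted p = 0.943). The value for miR-502-3p rested on line 3T of L1-R2, without which it was −0.59. miR-500 and miR-502-5p are also among the microRNAs that the study prioritized in patients' metastases, without adjustment and with less RNA in polymetastatic progression. In these lines neither passed the adjusted limma test. Both estimates were also negative but smaller than their SE, and both turned positive with RNU44 and RNU48 as reference. The study reported that its prioritized lists, taken as sets, separated these same lines by group. That was not tested here, and 2 single members cannot decide it.

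The members varied little from line to line. The SD over the 7 lines of raw Ct had a median of 0.343 cycles over the 9 members and of 0.509 over the 135 microRNAs detected in all lines, and after normalization 0.285 and 0.431. On both scales 7 of the 9 members were below the median of the 135. The spread grew with Ct, and among the 66 other microRNAs with a mean raw Ct in the members' range, 26.50 to 32.81, the median SD was 0.554 on raw Ct and 0.480 after normalization. miR-362-5p, at 0.198 cycles, had the second smallest raw SD of the 135, and miR-532-5p, at 0.0913 cycles, the third smallest after normalization. miR-502-5p and miR-502-3p were above the median, with raw SDs of 0.652 and 0.628 cycles.

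**Figure D3:**
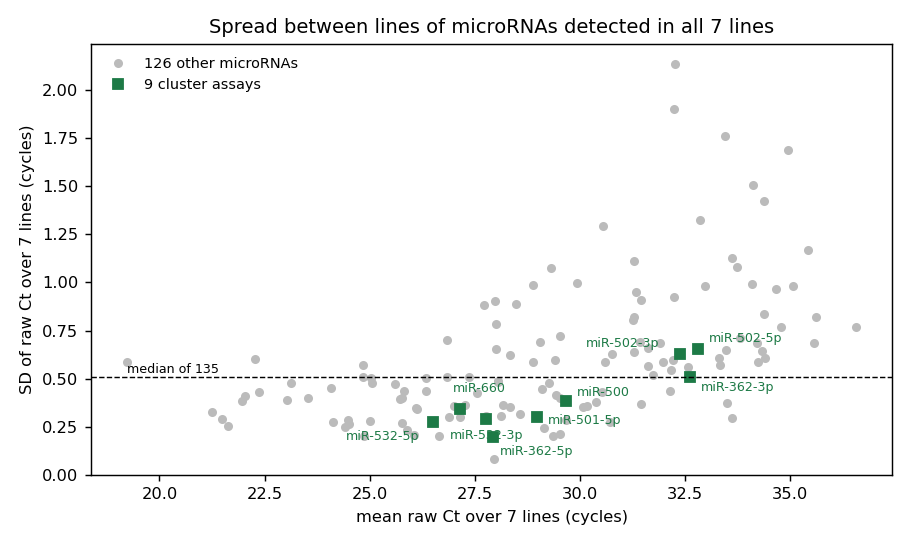
SD of raw Ct over the 7 lines (vertical axis, cycles) against mean raw Ct (horizontal axis, cycles) for the 135 microRNAs detected in all lines; green squares are the 9 cluster assays, grey points the other 126, and the dashed line the median of 0.509. 7 of the 9 members lie below the line, and miR-502-5p and miR-502-3p above it.

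On raw Ct most members rose and fell together over the lines, and the cause was not tested. Line 4T of L1-R2 was the earliest of its group for 9 of 9 members, line 3T the latest for 7 of 9, and line 8T of L1Mic-R2 the latest of its group for 7 of 9. Line 4T of L1-R2 also had the earliest and line 8T of L1Mic-R2 the latest U6, RNU44 and RNU48 of all 7 lines. Between the 36 pairs of members the median Pearson r over the 7 lines was 0.55 on raw Ct, against 0.19 over the 8911 pairs of 134 microRNAs, and 34 pairs were positive. After quantile normalization the medians were 0.01 and −0.01, and 19 of 36 pairs were positive. With U6 as reference they were 0.12 and 0.05, with 24 of 36 pairs positive, and with the mean of the microRNAs found in every line as reference 0.07 and −0.00079, with 21 of 36 positive. These correlations describe 7 lines whose values share card and RNA input, and all of the medians after scaling were weak. The microRNAs most like the mean of the 9 members, out of 125 compared, were miR-106b with r = 0.96, miR-103 with 0.82 and miR-491-5p with 0.81 after normalization, over 7 lines. On raw Ct their r was 0.90, 0.53 and 0.76. The normalized Ct of miR-106b was tied at 27.27 in every L1Mic-R2 line, so that its r rests mainly on the L1-R2 lines. They were picked as the highest values, and no test is given.

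The arms of a hairpin share transcript, RNA and card, so that their difference in raw Ct is free of any constant shift of a card, though not of quantile normalization, which works by rank. The 3p arm of miR-532 came later than the 5p arm by 1.18, 1.31 and 1.37 cycles in L1-R2 and by 1.15, 1.19, 1.40 and 1.26 in L1Mic-R2. The group means were 1.29 ± 0.0970 (SD, n = 3) and 1.25 ± 0.109 (SD, n = 4), which differed by less than the spread between lines (exact two-sided permutation test, p = 0.629, adjusted p = 0.786 over 11 hairpins). For miR-362 the 3p arm was later by 4.19, 5.01 and 3.81 cycles in L1-R2 and by 4.93, 4.55, 5.18 and 5.17 in L1Mic-R2. These values overlapped through line 3T of L1-R2, and the difference of 0.62 cycles did not pass (exact permutation p = 0.143, adjusted p = 0.733). For miR-502 the arms were close and changed order, with the 3p arm at −0.64, 0.56 and −1.08 cycles relative to the 5p arm in L1-R2 and at 0.53, −0.71, −0.36 and −1.32 in L1Mic-R2 (exact permutation p = 0.857, adjusted p = 0.857). For miR-501 the 3p arm was 8.10 to 11.1 cycles later than the 5p arm, with Undetermined wells at 40. Of the 11 hairpins with both arms detected, 0% passed the adjusted test, and 9.09% had groups that did not overlap, none of the 3 cluster hairpins among them. A single hairpin could not have passed, since the smallest p of 0.0286 becomes 0.314 over 11 tests.

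The members that parted after normalization can also be set against each other on raw Ct. miR-501-5p came later than miR-660 by 2.31, 2.24 and 1.83 cycles in L1-R2 and by 1.45, 1.48, 1.80 and 1.60 in L1Mic-R2. The means were 2.13 ± 0.260 (SD, n = 3) and 1.58 ± 0.159 (SD, n = 4), and the groups did not overlap, with line 8T of L1-R2 and line 7T of L1Mic-R2 next to each other. This pair was chosen after its values were seen as the highest and the lowest of 9 members, so that no test is given and its direction follows from the choice.

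**Figure D4:**
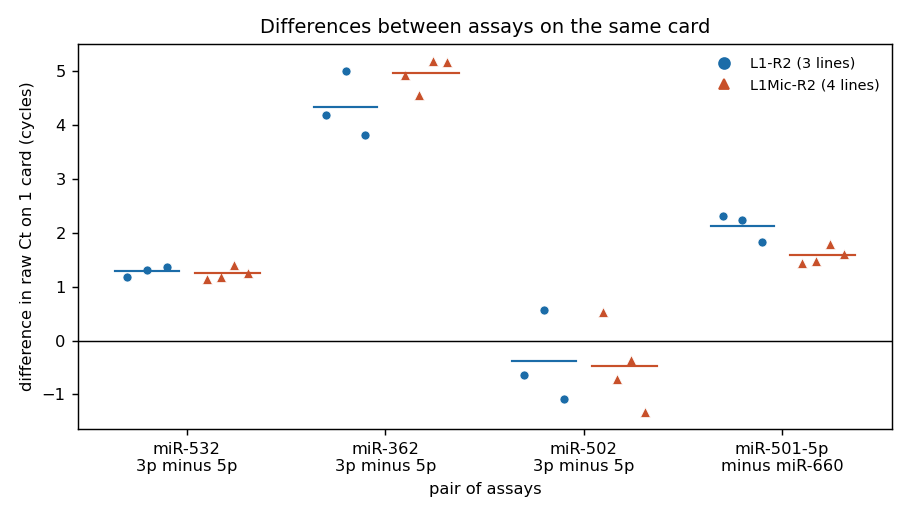
Difference in raw Ct between pairs of assays on the same card (vertical axis, cycles), with 1 point per line and horizontal bars for the group means (circles L1-R2, n = 3; triangles L1Mic-R2, n = 4). The arms of miR-532 differ by 1.15 to 1.40 cycles in all 7 lines, those of miR-362 by 3.81 to 5.18, those of miR-502 lie on both sides of 0, and miR-501-5p minus miR-660, a pair chosen after its values were seen, separates the groups.

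A list of other microRNAs of chromosome X was set beside the cluster. Of its 40 assays 23 were tested. At an adjusted p under 0.05 limma called 3 of them, 2 with more and 1 with less RNA in L1Mic-R2. The share over all microRNAs tested was 4.97%, and it fell whichever line was left out, as given above. Over the 23 assays the median size of the log2 fold change was 0.831, beside 0.149 in the cluster. These sizes are not matched for level. The 9 members tested were detected in all 7 lines, whereas the list needed detection in only 3 and was chosen with earlier results known. miR-221, a microRNA studied in melanoma and many carcinomas, was at 2.41 (SE 0.457) and miR-509-3-5p, of a cluster expressed in melanocytic cells, at −2.71 (SE 0.526), each with a limma adjusted p of 0.0392. The third was miR-542-5p, for which no fold is given. Its raw Ct was 38.49 to 40 in L1-R2 and 37.02, 35.86, 37.04 and 39.54 in L1Mic-R2, so that it passed the detection filter through L1Mic-R2 alone. Whether the cluster and this list differ was not tested.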

How the data were processed

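Total RNA of 7 lines was assayed by the authors on TaqMan Human MicroRNA Array A cards, 1 card per line, with a fluorescence threshold of 0.3. The deposited values used here are average Ct per assay on a log2 scale, with no normalization between cards, and Undetermined wells appear as 40. Counting depth does not apply to PCR, and the number of lines limits the precision. Nothing says that RNA was extracted more than once per line, so that p-values measure the spread between lines. Within each group these lines share 1 ancestor line.

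Groups and line numbers followed the labels; for L1-R2 the deposited names swap numbers 3T and 4T. Human microRNAs with a raw Ct below 38 in at least 3 of 7 lines were kept (181 of 377), quantile normalized and fitted as 40 minus Ct with limma 3.58.1 in R 4.3.3, with Benjamini-Hochberg adjustment over all 181 and no block. Single members also had an exact two-sided permutation test over 35 arrangements. The fit was checked on simulated data with shifts larger than any estimate of a member, so that the check does not cover small changes. Alternatives were raw Ct, 3 other references, a limit at Ct 35, other filters and fits, a block by line number and leaving out each line. Named were all members, the controls, the 3 most similar microRNAs and called microRNAs of a list of X-linked ones. The members and lists were chosen with earlier results of these data known.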

Additional observations from a re-analysis of the deposited data

Results flagged for a closer look

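In L1Mic-R2, miR-660 had 1 line apart from the rest after quantile normalization: line 2T was at 27.51 and the other 3 at 27.20, so that the gap to the nearest line was the whole range (ratio 1, above Dixon's critical value for 4 samples). The other 3 values are tied because quantile normalization gave them 1 rank, and on raw Ct the ratio for the same group was 0.396, below the critical value. In the same group miR-532-5p had line 8T apart on raw Ct, at 26.85 against 26.54 to 26.58 in the others, a ratio of 0.860. Of 23 groups of 4 values tested, chance alone would flag about 1.15.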

How the results depend on the processing

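The count of members called at an adjusted p under 0.05 was 0 under all 18 alternatives, in which the smallest adjusted p of a member ranged from 0.114 to 0.559. Before adjustment some alternatives called members. miR-501-5p and miR-660 were called with Ct limited to 35, with no detection filter and by the methods' test. miR-501-5p was also called with detection in all 7 lines and without line 7T of L1Mic-R2. miR-362-3p was called relative to U6 and without line 3T of L1-R2. The share of all microRNAs called before adjustment was not counted there. The median log2 fold change of the members was −0.33 on raw Ct, −0.27 relative to U6, 0.47 relative to RNU44 and RNU48, and 0.15 under the replicate block by line number. Minus the median of all microRNAs it was −0.08 under each of these first 3 scalings. These differ only by 1 constant per card, so that this difference could not change between them. Leaving out 1 line moved the members' median between −0.11 and 0.08, and its difference from the median of all between −0.20 and 0.0012. Of 162 values of single members 135 kept their sign and side of the threshold and 27 turned their sign. Turned were, on raw Ct, miR-362-5p (−0.073), miR-502-3p (−0.58) and miR-532-3p (−0.29). Relative to U6 they were miR-362-5p (−0.017), miR-502-3p (−0.53) and miR-532-3p (−0.23). Relative to RNU44 with RNU48 they were miR-362-3p (0.11), miR-500 (0.67), miR-502-5p (0.14), miR-532-5p (0.47) and miR-660 (0.43). Relative to the mean of those detected in every line they were miR-500 (0.10), miR-502-3p (−0.35) and miR-532-3p (−0.055). The replicate block turned miR-362-3p (0.086) and miR-500 (0.15), and a block by the numbers of the deposited names, chosen after seeing the data, miR-500 (0.059) and miR-502-3p (−0.44). The cause was not tested. Leaving out 1 line gave −0.57 to 0.035 for miR-362-3p, −0.15 to 0.089 for miR-500, −0.46 to 0.043 for miR-502-5p, −0.59 to 0.41 for miR-502-3p and −0.015 to 0.14 for miR-532-3p, and, for the difference between arms, −0.43 to 0.39 for miR-502 and −0.093 to 0.00063 for miR-532. miR-501-5p kept a positive sign under every alternative. Deviations of same-numbered lines correlated at −0.04 for line 3 and −0.20 for line 8. No correlation between lines of different number is given beside them, so that whether the numbers pair the lines was not decided. Only numbers 3 and 8 occur in both groups, so that the block compares few lines. It moved the count of calls over all microRNAs from 9 to 0, which cannot decide the question either. That count was also 0 relative to RNU44 with RNU48, with no detection filter, by the methods' test of single microRNAs and without line 3T or 8T of L1-R2 or 2T of L1Mic-R2. It was 1 to 4 without any other line, 6 to 14 under the other alternatives and 21 with the trend and robust options of limma. After quantile normalization the arm differences were 0.43 for miR-362, −0.21 for miR-502 and −0.16 for miR-532.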
